A study of Mus musculus with 22 samples.

Results

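Krüppel-like factors are zinc finger transcription factors, and the genes described here are the 7 members *Klf2*, *Klf3*, *Klf4*, *Klf6*, *Klf7*, *Klf10* and *Klf13*, taken from the 34047 genes in the RNA-seq count table by their symbols. The open chromatin around them was described from 95 of the 177956 ATAC-seq windows, namely those for which a member was the closest gene within 50 kb. The other 10 *Klf* genes of the table and its 8 *Sp* genes, the closest relatives of the family, are given as counts.

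Conventional dendritic cells (cDCs) were sorted from *Tbx21*RFP-cre mice, whose RFP reporter marks expression of the transcription factor T-bet, and every group therefore carried this allele. The mice were 6 to 10 weeks old and of both sexes, and an RNA library pooled the cells of 2 of them. The 3 subsets compared were XCR1+ cDC1s, RFP+ (T-bet+) cDC2s and RFP- (T-bet-) cDC2s, each CD11c+MHCII+ and negative for lineage markers, CD64 and Ly6C. RNA-seq covered spleen with 3 libraries per subset and mesenteric lymph nodes (MLN) with 3 cDC1, 2 T-bet+ cDC2 and 2 T-bet- cDC2 libraries, and ATAC-seq, which cuts accessible DNA with a transposase, covered the spleen with 2 libraries per subset. A subset is thus defined by sorted surface markers and by the reporter, which stands in for T-bet protein.

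Klf proteins bind GC-rich DNA and the CACCC element through a run of C2H2 zinc fingers at their C terminus, while their N termini differ and recruit either coactivators or corepressors. KLF2 is known for keeping lymphocytes quiescent and for driving the trafficking gene *S1pr1*, and KLF4 for the differentiation of monocytes and of some cDC2s. KLF6 and KLF7 are broadly expressed activators, KLF3 represses through CtBP, and KLF10 and KLF13 repress through the Sin3 complex, KLF10 being induced by TGF-β.

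The RNA libraries held 20993220 to 29006549 reads counted on genes, the ATAC libraries held 7270164 to 10081555 reads in windows, and no pair of libraries was identical. Levels are given as CPM, the read count scaled to library size, after TMM normalization of all 16 RNA libraries together. Sums of defining markers followed the sorted labels. 6 cDC1 markers summed to 1791 to 6271 CPM in cDC1s and 229 to 628 CPM in cDC2s. *Tbx21* with *Dtx1* summed to 325 to 351 CPM in spleen T-bet+ cDC2s, 17.1 to 39.1 CPM in those of the MLN and 11.1 CPM at most elsewhere. *Wdfy4* had the most reads of the 6 cDC1 markers in every cDC2 library. In MLN T-bet+ replicate 2, *Xcr1* had 882 reads and *Clec9a* 227, against 138 and 7 in replicate 1. *Wdfy4* went the other way (5498 against 16014). By the edgeR test described below, *Clec9a*, *Itgae* and *Tlr3* were higher in MLN than in spleen T-bet+ cDC2s. The part of cDC1s in that replicate was not tested. Libraries of 1 subset also differed from one another in how their levels followed GC content. For each library, Spearman's rank correlation was taken between the deviation of its genes from their means and the GC content of the most GC-rich 100 bases of each transcript, over 7635 genes. The correlation exceeded 0.1 in 6 of the 9 spleen libraries (cDC1 replicates 1 and 2 at 0.249 and 0.34, every T-bet+ library at 0.207 to 0.234, and T-bet- replicate 3 at 0.283). It was below 0.1 in spleen cDC1 replicate 3 (-0.265), in spleen T-bet- replicates 1 and 2 (-0.405 and -0.178) and in every MLN library (-0.315 to 0.0437). These are called the higher and the lower GC class below. When the MLN libraries were centred on their own means, cDC1 replicates 2 and 3 and T-bet- replicate 2 exceeded 0.1 (0.202, 0.249 and 0.225) and the other 4 did not, and fits within MLN with the class as a term used these classes. The labels do not say whether replicates came from separate sorts, so p-values measure the spread between these libraries. In sorted bulk samples fewer cells of a type and less RNA per cell cannot be told apart.

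The members differed widely in abundance. Per kilobase of exon, *Klf6* was the most abundant in every group, with group means of 154 to 324 CPM per kb. *Klf2* had group means of 6.99 to 89.1 CPM per kb, *Klf4* of 3.01 to 47.4 CPM per kb and *Klf10* of 5.03 to 33.8 CPM per kb. *Klf3* (1.57 to 9.5 CPM per kb), *Klf13* (0.702 to 5.17 CPM per kb) and *Klf7* (1.34 to 2.42 CPM per kb) had lower maxima. Between its highest and lowest library *Klf4* varied 27.1-fold, *Klf2* 17.5-fold, *Klf10* 13.7-fold, *Klf13* 9.68-fold and *Klf3* 9.47-fold, whereas *Klf6* varied 3.5-fold and *Klf7* 2.76-fold.

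**Figure D1:**
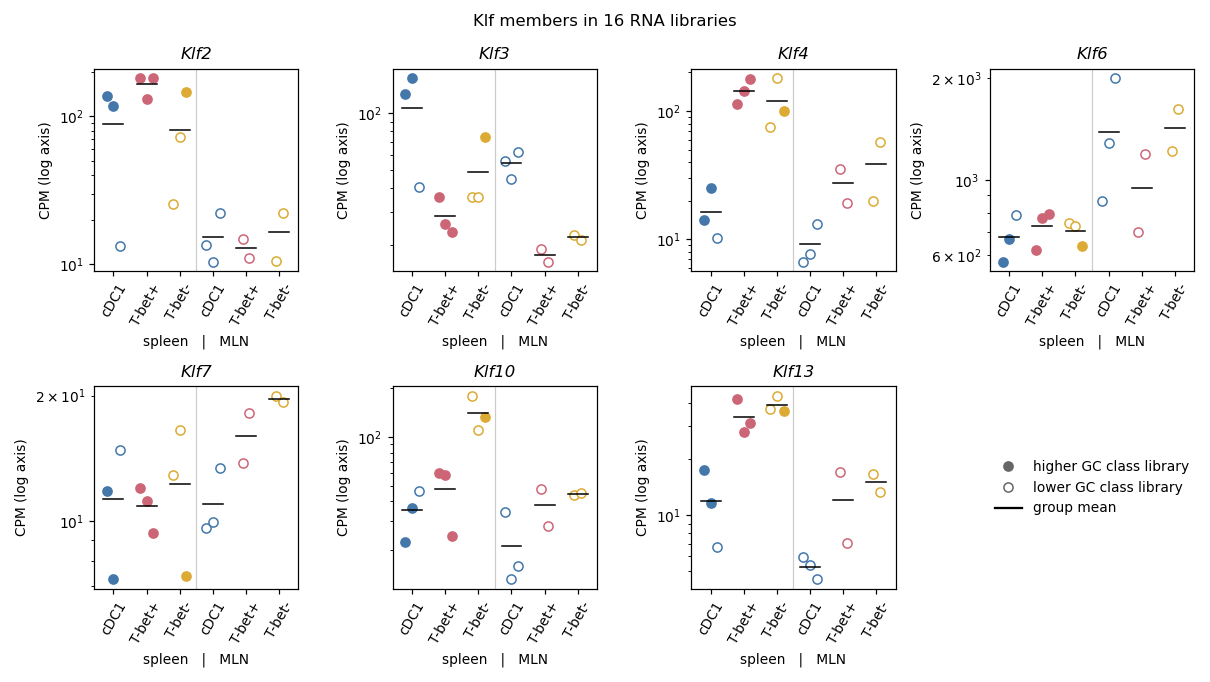
TMM-normalized CPM (log axis) of each member in the 16 RNA libraries, grouped by subset and tissue, with filled points for libraries of the higher GC class, open points for the lower class and a bar at each group mean. *Klf4* and *Klf13* are lower in the cDC1s of a tissue than in its cDC2s, *Klf10* is highest in spleen T-bet- cDC2s (111 to 180 CPM), and *Klf2* is at 22.3 CPM or less in every MLN library.

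All 7 members passed the filter on low counts in every fit. In the spleen, edgeR's quasi-likelihood test (adjusted p under 0.05) called 3 members between T-bet+ cDC2s and cDC1s, where 18.2% of all 14377 genes tested were called, and 3 members between T-bet- cDC2s and cDC1s, where 15.9% were called. *Klf4* and *Klf13* were higher than in cDC1s in both, *Klf3* was lower in T-bet+ cDC2s and *Klf10* was higher in T-bet- cDC2s. Between T-bet+ and T-bet- cDC2s 0 members were called, with 5.38% of all genes called. 1 member (*Klf10*) had an unadjusted p under 0.05 there, and DESeq2 called that member. Over all genes, 2664 of 14377 had such a p, and DESeq2 called 1413 of 17010. The median log2 fold change of the members was -0.17 between the cDC2 subsets, 0.44 between T-bet+ cDC2s and cDC1s and 0.12 between T-bet- cDC2s and cDC1s, beside -0.01, 0.03 and -0.01 over all genes.

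In the MLN, *Klf3* was called between T-bet+ cDC2s and cDC1s (6.22% of all 15298 genes called), and *Klf3* and *Klf4* between T-bet- cDC2s and cDC1s (5.79% called). Between T-bet+ and T-bet- cDC2s of the MLN, edgeR called 0 members and 0% of all genes, while 1444 genes but no member had an unadjusted p under 0.05 and DESeq2 called 328 genes but no member. The members' median log2 fold changes were -0.36 between the cDC2 subsets, 0.58 between T-bet+ cDC2s and cDC1s and 0.91 between T-bet- cDC2s and cDC1s, beside -0.02, -0.00 and 0.01 over all genes. The comparisons with cDC1s share the cDC1 libraries of their tissue.

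**Figure D2:**
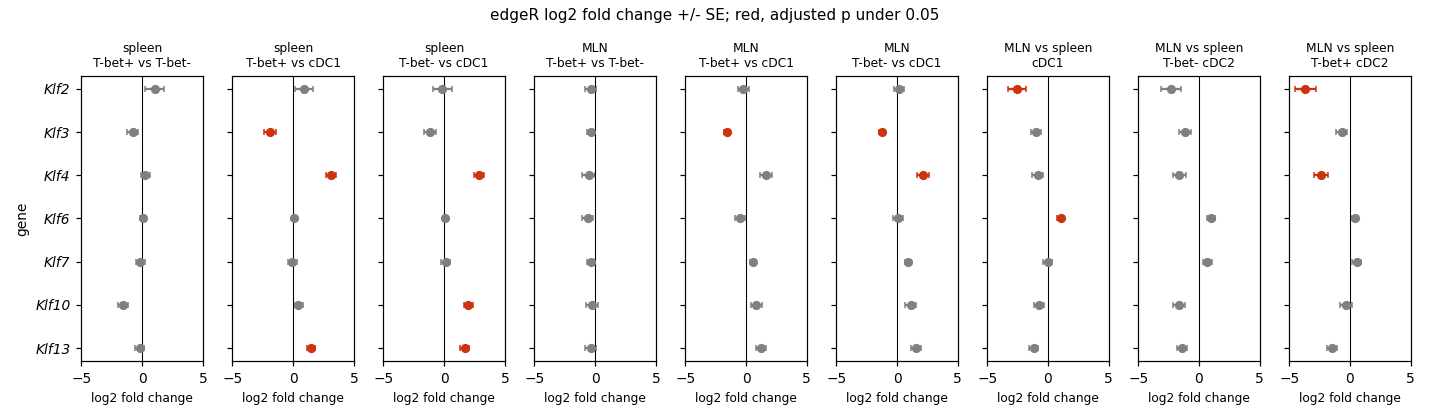
Log2 fold changes with their standard errors from edgeR for the 7 members in 9 comparisons, with red points for an adjusted p under 0.05. The red points are *Klf4* and *Klf13* above 0 and *Klf3* below 0 between spleen T-bet+ cDC2s and cDC1s, *Klf4*, *Klf10* and *Klf13* above 0 between spleen T-bet- cDC2s and cDC1s, *Klf3* below 0 and, for T-bet- cDC2s, *Klf4* above 0 against cDC1s in MLN, and *Klf2*, *Klf4* and *Klf6* between tissues.

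Of the 95 ATAC windows of 150 bases, 31 lay within 2 kb of a start of a member, 30 in an intron, 3 in an exon and 31 outside the gene, and 17 overlapped the window before them, so neighbouring windows share reads. 94 windows passed the filter, and 32 were called in at least 1 comparison (an adjusted p under 0.01 with a log2 fold change beyond 0.5 either way). Between T-bet+ cDC2s and cDC1s 23 windows were more and 4 less accessible, with 23% of all 166547 windows called. Between T-bet- cDC2s and cDC1s 10 were more and 3 less accessible, with 17.9% of all windows called. Between T-bet+ and T-bet- cDC2s 5 were more and 2 less accessible in T-bet+ cDC2s, with 6.28% of all windows called. The members' windows had median log2 fold changes of 0.33, 0.32 and 0.10 in these 3 comparisons, and all windows had medians within 0.01 of 0. *Klf7* held 26 windows, *Klf13* 19, *Klf6* 15, *Klf3* 14, *Klf10* 11, *Klf2* 8 and *Klf4* 2, and no window lay within 2 kb of a start of *Klf4* or *Klf7*.

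**Figure D3:**
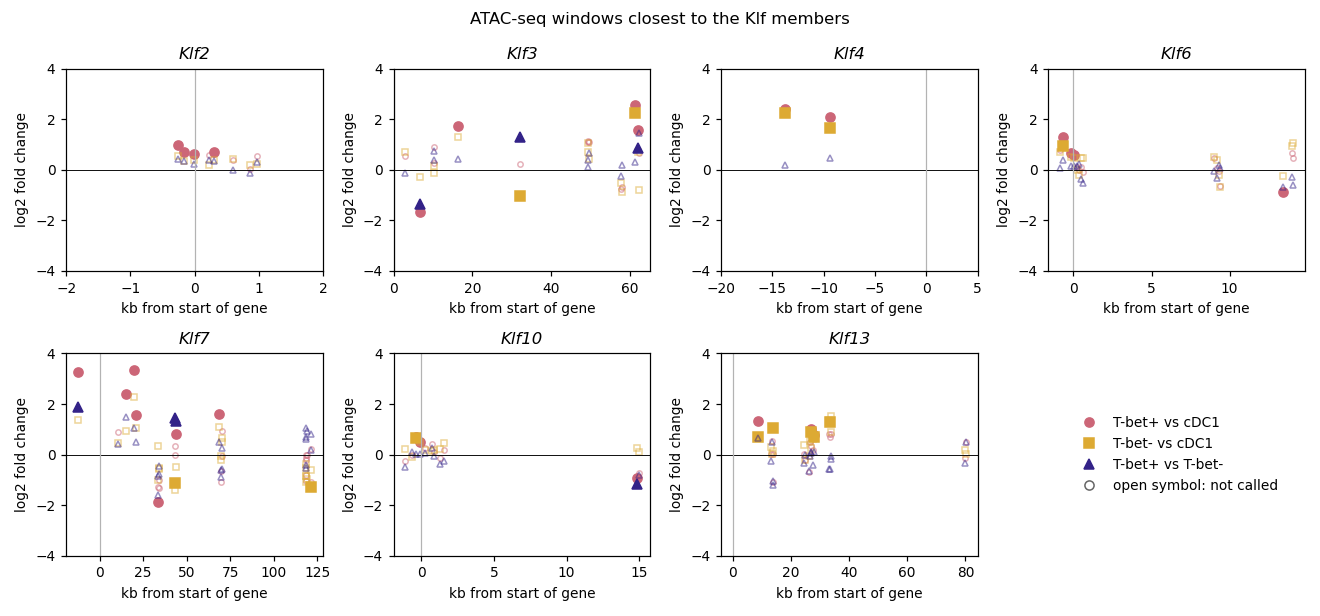
Log2 fold change of each tested ATAC window against its distance in kb from the start of the gene (negative values lie upstream), by member and comparison, with filled points for called windows. Called windows of *Klf2* all lie within 2 kb of its start, those of *Klf4* lie upstream at -13.8 and -9.4 kb, and the windows of *Klf3* more open in T-bet+ cDC2s than in cDC1s lie at 16.2, 61.4 and 62.1 kb.

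*Klf2* (chr8:72319033-72321656, + strand, mm10) varied widely within the cDC1s and the T-bet- cDC2s of the spleen. It was at 182, 130 and 182 CPM in the 3 spleen T-bet+ cDC2 libraries, at 136, 117 and 13.3 CPM in spleen cDC1s and at 25.4, 71.8 and 146 CPM in spleen T-bet- cDC2s. The T-bet+ libraries were high throughout, while the other groups overlapped one another and each spanned a wide range. Its log2 fold change was 1.03 ± 0.77 (SE) between T-bet+ and T-bet- cDC2s (adjusted p = 0.53) and 0.90 ± 0.77 between T-bet+ cDC2s and cDC1s (adjusted p = 0.49), and neither passed the test. The most GC-rich 100 bases of its transcript have a GC content of 86%, above that of 94% of 11854 genes. The level followed the GC class, as libraries of the higher class exceeded those of the lower class by 3.15 (log2) within spleen cDC1s and by 1.56 within spleen T-bet- cDC2s, against -0.02 and -0.03 for the median gene. For the 710 genes whose richest 100 bases had at least the GC content of *Klf2*, these medians were 0.54 and 0.04. Among libraries of the higher class alone, which kept only T-bet- replicate 3, the log2 fold change between T-bet+ and T-bet- cDC2s was 0.17. With the class as a term it was -0.41 ± 0.54.

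The 4 called windows at *Klf2* were all near its start and all more accessible in T-bet+ cDC2s than in cDC1s. The window with the largest difference spans chr8:72318704-72318853 (-0.3 kb from the start). The called window that spans the start also holds a CACCC-type element of the family. The sequence of the window at -0.3 kb, on the + strand of mm10, is shown with its own such element in capitals.
Klf2 window: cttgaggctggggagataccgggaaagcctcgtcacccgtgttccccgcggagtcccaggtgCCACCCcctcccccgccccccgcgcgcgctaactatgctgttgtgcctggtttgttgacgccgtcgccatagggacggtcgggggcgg
This window was at 38.4 and 34.7 CPM in T-bet+ cDC2s, at 27.5 and 26.3 CPM in T-bet- cDC2s and at 16.5 and 20.4 CPM in cDC1s, and the groups did not overlap. T-bet+ cDC2s exceeded cDC1s by a log2 fold change of 0.99 ± 0.18 (adjusted p = 1.1e-05), called in 12 of 12 alternative fits. Between T-bet- cDC2s and cDC1s it was 0.54 ± 0.19 (adjusted p = 0.022) and was not called. The other 3 called windows, of which the one at -0.2 kb overlaps it, had log2 fold changes of 0.61 to 0.72 between T-bet+ cDC2s and cDC1s. Their calls held in 7 to 10 of 12 alternative fits, and that at -0.2 kb was lost without cDC1 replicate 1 (0.55, adjusted p = 0.051) or T-bet+ replicate 1 (0.55, adjusted p = 0.013).

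*Klf4* (chr4:55527143-55532466, - strand) showed the largest difference between cDC2s and cDC1s of the 7 members. It was at 114, 143 and 177 CPM in spleen T-bet+ cDC2s, at 74.8, 182 and 101 CPM in spleen T-bet- cDC2s and at 14.2, 25 and 10.3 CPM in spleen cDC1s. The cDC2 subsets overlapped, and every cDC2 library lay above every cDC1 library. *Klf4* was higher than in cDC1s by 3.13 ± 0.44 (log2, adjusted p = 0.00096) for T-bet+ and by 2.86 ± 0.43 (adjusted p = 0.0017) for T-bet- cDC2s. Both calls held in all 9 alternative fits and without each library in turn. Between T-bet+ and T-bet- cDC2s the log2 fold change was 0.28 ± 0.40 (adjusted p = 0.76).

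In MLN the mean level of *Klf4* was lower in each subset, with 35.7 and 19.3 CPM in T-bet+ cDC2s, 19.8 and 57.2 CPM in T-bet- cDC2s and 6.73, 7.71 and 13.1 CPM in cDC1s. The MLN cDC2 libraries again lay above all MLN cDC1 libraries. T-bet- cDC2s exceeded cDC1s by 2.12 ± 0.49 (log2, adjusted p = 0.046), a call lost without any 1 of 6 libraries: T-bet- replicate 1 (2.68, adjusted p = 0.061) or 2 (1.19, adjusted p = 0.3), T-bet+ replicate 1 (adjusted p = 0.054) or cDC1 replicate 1, 2 or 3 (adjusted p = 0.1, 0.14 and 0.083). It was also lost with DESeq2's size factors (adjusted p = 0.054) and with only the compared libraries in the fit (adjusted p = 0.051). In T-bet+ cDC2s of the MLN it was 1.62 ± 0.49 (adjusted p = 0.097) and did not pass the test, though DESeq2 called it (adjusted p = 0.024). *Klf4* is known in monocytes, and the sum of 7 monocyte and macrophage markers was higher in cDC2s than in cDC1s. They summed to 18.5 to 25.3 CPM in spleen cDC1s, 370 to 441 CPM in spleen T-bet+ cDC2s and 560 to 784 CPM in spleen T-bet- cDC2s, and in MLN to 12.7 to 23.1, 215 to 366 and 424 to 697 CPM in the same order. In spleen T-bet+ cDC2s most of the sum was *Adgre1* (mean of 373 CPM, against 9.28 CPM in cDC1s), which with *C1qa* rose relative to cDC1s while *Ly6c2* fell (-1.47 ± 0.41, adjusted p = 0.036), and in T-bet- cDC2s 4 of the 7 rose. *Vcan* was under 1 CPM in every group, and *Fcgr1* and *Mertk* were under 1 CPM in spleen T-bet+ cDC2s. The part of these markers in the *Klf4* difference was not tested. The most GC-rich 100 bases of *Klf4* have a GC content of 86%, and its higher-class libraries differed from lower-class ones by 0.87 (log2) within spleen cDC1s and by -0.35 within spleen T-bet- cDC2s.

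Both windows closest to *Klf4* lay upstream of the gene, outside of it, and both were more accessible in cDC2s of either subset. The farther one, chr4:55546157-55546306 (-13.8 kb), is shown because it differed most, and none of the motifs searched was found in it.
Klf4 window: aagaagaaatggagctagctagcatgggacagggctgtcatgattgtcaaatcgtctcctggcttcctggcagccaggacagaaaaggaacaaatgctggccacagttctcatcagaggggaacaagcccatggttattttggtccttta
It was at 3.02 and 2.38 CPM in T-bet+ cDC2s, at 3.05 and 1.81 CPM in T-bet- cDC2s and at 0.235 and 0.776 CPM in cDC1s. The cDC1 libraries lay below all others. Against cDC1s the log2 fold change was 2.41 ± 0.56 (adjusted p = 0.00038) for T-bet+ and 2.24 ± 0.57 (adjusted p = 0.0016) for T-bet- cDC2s. Without cDC1 replicate 1 both calls were lost (1.79, adjusted p = 0.036, and 1.61, adjusted p = 0.081), as was the T-bet- call without T-bet- replicate 1 (1.84, adjusted p = 0.042), and DESeq2 made neither call (adjusted p = 0.012 and 0.028). The window at -9.4 kb had log2 fold changes of 2.09 ± 0.46 (adjusted p = 0.00019) and 1.64 ± 0.48 (adjusted p = 0.0066). Its T-bet+ call was lost without cDC1 replicate 2 (adjusted p = 0.014), and its T-bet- call without cDC1 replicate 1 or 2 (adjusted p = 0.014 and 0.12), without T-bet- replicate 1 (adjusted p = 0.16) or with DESeq2 (adjusted p = 0.053).

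*Klf6* (chr13:5861482-5870394, + strand) was abundant in all spleen subsets, which did not differ beyond the spread between libraries. It was at 573, 666 and 787 CPM in cDC1s, at 618, 772 and 794 CPM in T-bet+ cDC2s and at 745, 730 and 636 CPM in T-bet- cDC2s. All 3 groups overlapped, and the log2 fold changes between them were 0.05, 0.11 and 0.06, with a smallest adjusted p of 0.75. In MLN it was at 868, 1288 and 2004 CPM in cDC1s, at 702 and 1193 CPM in T-bet+ cDC2s and at 1218 and 1623 CPM in T-bet- cDC2s, and the log2 fold changes of -0.61 to 0.11 did not pass the test. The cDC1 libraries overlapped both cDC2 subsets, while the T-bet+ libraries lay below the T-bet- libraries.

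The called windows near the start of *Klf6* were less accessible in cDC1s than in T-bet+ cDC2s, while no difference in its transcript passed the test in spleen. The window chr13:5860757-5860906 (-0.7 kb) is shown as the one with the largest difference, with the CACCC-type element in capitals.
Klf6 window: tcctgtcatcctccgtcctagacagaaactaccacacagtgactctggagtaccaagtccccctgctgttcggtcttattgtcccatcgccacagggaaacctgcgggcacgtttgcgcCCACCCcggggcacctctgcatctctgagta
It was at 45.6 and 51.5 CPM in T-bet+ cDC2s, at 39.9 and 34.8 CPM in T-bet- cDC2s and at 21.3 and 18.1 CPM in cDC1s, with no overlap between the 3 groups. Over cDC1s the log2 fold change was 1.30 ± 0.18 (adjusted p = 6.2e-09) for T-bet+ and 0.92 ± 0.18 (adjusted p = 2.9e-05) for T-bet- cDC2s, called in 12 of 12 alternative fits each. Windows at -0.1 and 0.0 kb were called between T-bet+ cDC2s and cDC1s as well, with log2 fold changes of 0.66 and 0.59 (10 and 9 of 12 alternative fits). A window 13.4 kb from the start, past the gene's end, was less accessible in T-bet+ cDC2s than in cDC1s (6.03 and 6.53 against 13.4 and 9.96 CPM, log2 fold change -0.90 ± 0.26, adjusted p = 0.0046). That call was lost without cDC1 replicate 1 (-0.66, adjusted p = 0.16) or either T-bet+ library (adjusted p = 0.028 and 0.012), and DESeq2 did not make it (adjusted p = 0.027).

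*Klf7* (chr1:64029447-64122282, - strand) was low in every library, at 7.24 to 14.8 CPM in spleen cDC1s, 9.38 to 12 CPM in spleen T-bet+ cDC2s and 7.36 to 16.5 CPM in spleen T-bet- cDC2s. The spleen groups overlapped and no spleen comparison passed the test (smallest adjusted p = 0.84). In MLN, *Klf7* was at 9.61, 9.92 and 13.4 CPM in cDC1s, at 13.8 and 18.2 CPM in T-bet+ cDC2s and at 20 and 19.3 CPM in T-bet- cDC2s. The MLN groups did not overlap, and the largest log2 fold change, 0.91 ± 0.28 for T-bet- cDC2s over cDC1s, did not pass the test (adjusted p = 0.11). The gene overlaps *Gm26649*, *Mir6899* and *Gm13748*, and reads on the opposite strand cannot be told apart, since the strand setting of the counting is not given.

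*Klf7* held the most windows and the most called ones, 9 of 26, of which 3 lay equally close to an overlapping gene. The 2 windows that follow had the largest log2 fold changes of all the members' windows, and are shown with the motif they hold in capitals, a T-box form (TCACACCT) in the first and a C/EBP form (TTGCNNAA, read on the opposite strand) in the second.
Klf7 window, chr1:64102164-64102313 (20 kb, intron): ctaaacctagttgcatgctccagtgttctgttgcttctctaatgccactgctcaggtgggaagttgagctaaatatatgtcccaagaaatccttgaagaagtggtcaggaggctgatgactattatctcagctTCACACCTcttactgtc
Klf7 window, chr1:64134592-64134741 (-12.4 kb, outside the gene): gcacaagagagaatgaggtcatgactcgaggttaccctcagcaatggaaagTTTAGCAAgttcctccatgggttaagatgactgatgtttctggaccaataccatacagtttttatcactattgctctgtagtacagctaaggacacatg
The intron window was at 1.94 and 2.07 CPM in T-bet+ cDC2s, at 1.34 and 0.602 CPM in T-bet- cDC2s and at 0.118 and 0.259 CPM in cDC1s. T-bet+ cDC2s exceeded cDC1s by 3.34 ± 0.77 (log2, adjusted p = 0.00032), a call lost without cDC1 replicate 1 (2.90, adjusted p = 0.013) and with DESeq2 (adjusted p = 0.014), and the T-bet- difference of 2.27 was not called (adjusted p = 0.042). The upstream window was at 2.59 and 3.52 CPM in T-bet+ cDC2s, at 0.61 and 1 CPM in T-bet- cDC2s and at 0.235 and 0.388 CPM in cDC1s, with no overlap between the groups. T-bet+ cDC2s were there 3.25 ± 0.61 (log2) above cDC1s (adjusted p = 1.4e-05, 12 of 12 alternative fits) and 1.88 ± 0.50 above T-bet- cDC2s (adjusted p = 0.0059). The latter call was lost without any 1 of the 4 cDC2 libraries (T-bet+ replicates 1 and 2, adjusted p = 0.016 and 0.12, and T-bet- replicates 1 and 2, adjusted p = 0.081 and 0.021). Another window, in the intron at 14.9 kb, was at 1.83 and 1.55 CPM in T-bet+ cDC2s, 0.488 and 0.702 CPM in T-bet- cDC2s and 0.588 and 0 CPM in cDC1s (T-bet+ over cDC1s 2.41 ± 0.76, adjusted p = 0.0093), a call made in 6 of 12 alternative fits and lost without cDC1 replicate 2 (1.51, adjusted p = 0.2) or either T-bet+ library (adjusted p = 0.062 and 0.026).

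Of the other called windows at *Klf7*, 2 in a coding exon, both equally close to an overlapping gene, were more open in T-bet+ than T-bet- cDC2s in 12 of 12 alternative fits. The one at 43.4 kb was at 14.5 and 12.4 CPM in T-bet+ cDC2s, 4.76 and 5.12 CPM in T-bet- cDC2s and 11.4 and 9.96 CPM in cDC1s (T-bet+ over T-bet- cDC2s 1.44 ± 0.26, adjusted p = 3.1e-05). The one at 43.6 kb was at 51.7 and 38.2 CPM, 17.2 and 19.1 CPM and 26.5 and 24.3 CPM in the same order (1.31 ± 0.18, adjusted p = 1.3e-07). In both, the T-bet- libraries lay below all others. An intron window at 33.8 kb, also equally close to another gene, was less open in T-bet+ cDC2s (1.62 and 1.24 CPM) than in cDC1s (6.24 and 4.14 CPM), by -1.86 ± 0.40 (adjusted p = 0.00013, 11 of 12 alternative fits). A window at 121.6 kb was less open in T-bet- cDC2s (1.95 and 2.11 CPM) than in cDC1s (4.59 and 5.43 CPM), by -1.29 ± 0.38 (adjusted p = 0.0066, 7 of 12 alternative fits).

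*Klf3* (chr5:64803388-64832901, + strand) was the member with its highest levels in cDC1s. In spleen it was at 126, 154 and 40.6 CPM in cDC1s, at 35.8, 25.7 and 23.4 CPM in T-bet+ cDC2s and at 35.9, 35.9 and 74.3 CPM in T-bet- cDC2s. Every T-bet+ library lay below every cDC1 library, whereas T-bet- cDC2s and cDC1s overlapped through T-bet- replicate 3 and cDC1 replicate 3. *Klf3* was lower in T-bet+ cDC2s than in cDC1s by -1.91 ± 0.49 (log2, adjusted p = 0.023). The call was lost without T-bet+ replicate 1, 2 or 3 (adjusted p = 0.054, 0.087 and 0.093) or cDC1 replicate 1 or 2 (adjusted p = 0.055 and 0.079). Between T-bet- cDC2s and cDC1s the log2 fold change was -1.13 ± 0.48 (adjusted p = 0.16), which became -1.52 (adjusted p = 0.025) without cDC1 replicate 3.

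The 2 libraries that bridged the groups were the ones whose GC class differed from the rest of their group, and the most GC-rich 100 bases of the *Klf3* transcript have a GC content of 82%, above that of 84.2% of genes. Higher-class libraries exceeded lower-class ones by 1.76 (log2) within spleen cDC1s and by 1.03 within spleen T-bet- cDC2s. Among higher-class libraries alone, *Klf3* was lower in T-bet+ cDC2s than in cDC1s by -2.30 ± 0.23 (adjusted p = 0.00013). Against T-bet- cDC2s, of which only replicate 3 was of that class, it was lower by -1.40. With the class as a term these values were -2.19 ± 0.25 (adjusted p = 0.00014) and -1.64 ± 0.29 (adjusted p = 0.01). Without regard to class, the T-bet+ to T-bet- difference was -0.78 ± 0.48 (adjusted p = 0.43) and did not pass.

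In MLN, where every library was of the lower class on the scale of all 16 libraries, *Klf3* was at 55.9, 44.5 and 62.3 CPM in cDC1s, at 19 and 16.3 CPM in T-bet+ cDC2s and at 22.6 and 21.2 CPM in T-bet- cDC2s. The 3 groups did not overlap. Against cDC1s the log2 fold change was -1.59 ± 0.26 (adjusted p = 0.013) for T-bet+ and -1.25 ± 0.25 (adjusted p = 0.029) for T-bet- cDC2s. The first call was lost without T-bet+ replicate 1 or 2 (adjusted p = 0.064 and 0.06) or cDC1 replicate 3 (adjusted p = 0.057), and the second without T-bet- replicate 1 or 2 (adjusted p = 0.17 for each) or cDC1 replicate 1 or 3 (adjusted p = 0.054 and 0.11). With the classes found within MLN as a term they were -1.70 (adjusted p = 0.035) and -1.28 (adjusted p = 0.037). The gene overlaps *Gm20033* on the opposite strand and *C230096K16Rik* on its own strand, so its counts may hold reads of either.

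At *Klf3*, 5 of 14 windows were called, in both directions. The 2 sequences below were chosen as the window that lost and the window that gained the most accessibility in T-bet+ cDC2s relative to cDC1s, and neither held a motif searched.
Klf3 window, chr5:64810002-64810151 (6.7 kb, intron): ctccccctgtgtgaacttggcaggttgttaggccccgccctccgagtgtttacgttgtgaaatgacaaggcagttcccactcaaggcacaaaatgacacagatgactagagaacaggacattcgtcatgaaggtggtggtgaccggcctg
Klf3 window, chr5:64864712-64864861 (61.4 kb, past the end of the gene): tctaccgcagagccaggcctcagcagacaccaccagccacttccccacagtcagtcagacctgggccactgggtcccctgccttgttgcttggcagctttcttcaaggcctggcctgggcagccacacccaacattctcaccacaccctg
The intron window was at 2.16 and 3.42 CPM in T-bet+ cDC2s, at 7.69 and 6.82 CPM in T-bet- cDC2s and at 9.3 and 8.54 CPM in cDC1s. T-bet+ cDC2s were lower than cDC1s by -1.67 ± 0.31 (log2, adjusted p = 1.3e-05, 12 of 12 alternative fits) and lower than T-bet- cDC2s by -1.37 ± 0.32 (adjusted p = 0.0014), the latter not without T-bet+ replicate 1 (-1.08, adjusted p = 0.052) or T-bet- replicate 1 (-1.28, adjusted p = 0.023) and not with DESeq2 (adjusted p = 0.011). The distal window went the other way, at 12.1 and 13 CPM in T-bet+ cDC2s, 10.4 and 9.73 CPM in T-bet- cDC2s and 2.24 and 1.94 CPM in cDC1s. These log2 fold changes over cDC1s were 2.57 ± 0.31 (adjusted p = 1.9e-10) and 2.25 ± 0.32 (adjusted p = 2.7e-08), called in 12 of 12 alternative fits each. A window at 62.1 kb was more accessible in T-bet+ cDC2s than in cDC1s (1.56 ± 0.25, adjusted p = 3.2e-07), as was an intron window at 16.2 kb (5.06 and 3.11 against 1.41 and 1.04 CPM, 1.72 ± 0.44, adjusted p = 0.0014), the latter not without cDC1 replicate 2 (1.52, adjusted p = 0.03) or T-bet+ replicate 1 (1.33, adjusted p = 0.046) and not with DESeq2 (adjusted p = 0.024). The window closest to the start, at 2.9 kb, was called in no comparison. A window at 32.1 kb was less accessible in T-bet- cDC2s (6.96 and 8.22 CPM) than in T-bet+ cDC2s (21.3 and 16.1 CPM) or cDC1s (14.6 and 17.1 CPM), with a log2 fold change of 1.29 ± 0.23 between the cDC2 subsets (adjusted p = 2.6e-05, 12 of 12 alternative fits).

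*Klf10* (chr15:38291463-38300706, - strand) stood out in spleen T-bet- cDC2s. It was at 180, 111 and 133 CPM there, at 59.7, 57.9 and 24.5 CPM in spleen T-bet+ cDC2s and at 22.4, 36.2 and 46.5 CPM in spleen cDC1s. Every T-bet- library lay above every other spleen library, while T-bet+ cDC2s and cDC1s overlapped. *Klf10* was higher in T-bet- cDC2s than in cDC1s by 2.01 ± 0.40 (log2, adjusted p = 0.0078), a call that held in all 9 alternative fits and without each library in turn. Between T-bet+ and T-bet- cDC2s the log2 fold change was -1.57 ± 0.39 (adjusted p = 0.051) and narrowly missed the threshold. Over alternative settings its adjusted p ranged from 0.00031 to 0.14, and it passed with DESeq2 (adjusted p = 0.0039) and without cDC1 replicate 1 (adjusted p = 0.049) or 3 (adjusted p = 0.047). In MLN *Klf10* was at 43.8 and 44.8 CPM in T-bet- cDC2s, at 47.6 and 27.9 CPM in T-bet+ cDC2s and at 34.1, 13.1 and 15.8 CPM in cDC1s. The MLN cDC2 subsets overlapped, and no MLN comparison passed the test. Without cDC1 replicate 1, whose level was the highest of the MLN cDC1s, the log2 fold change over cDC1s was 1.44 (adjusted p = 0.041) for T-bet+ and 1.71 (adjusted p = 0.03) for T-bet- cDC2s.

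The window at *Klf10* that differed most lay past the end of the gene, at chr15:38285806-38285955 (14.8 kb from the start). It is shown as the only called window of *Klf10* between the cDC2 subsets, and held none of the motifs searched.
Klf10 window: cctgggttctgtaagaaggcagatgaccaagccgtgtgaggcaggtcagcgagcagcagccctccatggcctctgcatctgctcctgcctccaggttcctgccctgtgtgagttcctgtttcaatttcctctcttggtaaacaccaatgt
It was at 5.39 and 4.25 CPM in T-bet+ cDC2s, at 8.3 and 13.3 CPM in T-bet- cDC2s and at 8.83 and 9.45 CPM in cDC1s, so the T-bet+ libraries lay below all others. Its log2 fold change between T-bet+ and T-bet- cDC2s was -1.18 ± 0.28 (adjusted p = 0.0017), lost without T-bet+ replicate 2 (-1.01, adjusted p = 0.022) or T-bet- replicate 2 (-0.79, adjusted p = 0.19) and with DESeq2 (adjusted p = 0.017). The promoter window at -0.4 kb was more accessible than in cDC1s in both cDC2 subsets, by 0.68 ± 0.14 (adjusted p = 0.00011) for T-bet+ and 0.66 ± 0.14 (adjusted p = 0.00022) for T-bet- cDC2s. It was at 103 and 95.7 CPM in T-bet+ cDC2s, at 110 and 87.4 CPM in T-bet- cDC2s and at 67.9 and 56.5 CPM in cDC1s. Both calls were lost without cDC1 replicate 2 (0.56, adjusted p = 0.027, and 0.54, adjusted p = 0.041), and that of T-bet- cDC2s also without T-bet- replicate 1 (0.49, adjusted p = 0.036).

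*Klf13* (chr7:63886351-63938915, - strand) was higher in both cDC2 subsets than in cDC1s. In spleen it was at 41.9, 27.8 and 31 CPM in T-bet+ cDC2s, at 37.1, 43.7 and 36 CPM in T-bet- cDC2s and at 17.5, 11.6 and 6.77 CPM in cDC1s. The cDC2 subsets overlapped, and all their libraries lay above the cDC1 libraries. Over cDC1s the log2 fold change was 1.70 ± 0.35 (adjusted p = 0.0088) in T-bet- cDC2s, which held in all 9 alternative fits and without each library, and 1.49 ± 0.34 (adjusted p = 0.015) in T-bet+ cDC2s, which was lost without T-bet+ replicate 1 (1.30, adjusted p = 0.064) or cDC1 replicate 2 (1.38, adjusted p = 0.072). In MLN it was at 17.1 and 7.05 CPM in T-bet+ cDC2s, at 16.7 and 13.3 CPM in T-bet- cDC2s and at 5.96, 5.37 and 4.51 CPM in cDC1s. All MLN cDC2 libraries were above all MLN cDC1 libraries, but log2 fold changes of 1.21 ± 0.41 (adjusted p = 0.13) and 1.57 ± 0.41 (adjusted p = 0.067) did not pass the test. The second, of T-bet- cDC2s, was called in 5 of 10 alternative fits, among them DESeq2. Without T-bet+ replicate 2 the first was 1.73 (adjusted p = 0.039), and without T-bet+ replicate 1 or 2 the second passed (adjusted p = 0.034 and 0.028). The monocyte and macrophage marker sums given with *Klf4* were likewise higher in the cDC2 subsets than in cDC1s, and their part in these differences was not tested. The most GC-rich 100 bases of *Klf13* have a GC content of 87%, above that of 95.8% of genes, and higher-class libraries differed from lower-class ones by 1.00 (log2) within spleen cDC1s and by -0.16 within spleen T-bet- cDC2s. Among higher-class libraries alone its difference over cDC1s was 1.2 (adjusted p = 0.016) for T-bet+ cDC2s. It was 1.31 for T-bet- cDC2s, of which only replicate 3 was of that class. *Klf13* overlaps *Gm27252* and *E030018B13Rik* on the opposite strand.

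The window of *Klf13* with the largest difference lay in an intron, at chr7:63930218-63930367 (8.6 kb), and is shown because a T-box form (TCACACCT) and a Runx form (TGTGGTT, read on the opposite strand) lie next to each other in it, in capitals.
Klf13 window: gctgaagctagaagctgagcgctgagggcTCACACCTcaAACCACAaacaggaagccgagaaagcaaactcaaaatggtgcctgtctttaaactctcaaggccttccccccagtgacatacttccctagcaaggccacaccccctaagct
It was at 31.6 and 25.3 CPM in T-bet+ cDC2s, at 16.6 and 19.8 CPM in T-bet- cDC2s and at 11.2 and 11.4 CPM in cDC1s, and the 3 groups did not overlap. T-bet+ cDC2s exceeded cDC1s by 1.33 ± 0.21 (log2, adjusted p = 2.2e-07, 12 of 12 alternative fits). T-bet- cDC2s exceeded cDC1s by 0.69 ± 0.21 (adjusted p = 0.0094), a call lost without any 1 of the cDC1 and T-bet- libraries (adjusted p = 0.015 to 0.13) and made in 5 of 12 alternative fits. The difference between the cDC2 subsets, 0.64 ± 0.20, was not called (adjusted p = 0.02). A second intron window at 33.5 kb was most accessible in T-bet- cDC2s, at 12.4 and 14 CPM against 8.62 and 9.12 CPM in T-bet+ cDC2s and 7.18 and 3.75 CPM in cDC1s. T-bet- cDC2s exceeded cDC1s there by 1.27 ± 0.27 (adjusted p = 0.00015), a call lost without cDC1 replicate 2 (0.89, adjusted p = 0.047). Another, at 13.7 kb and near another annotated start of the gene, was at 7.81 and 7.42 CPM in T-bet- cDC2s, 3.34 and 4.04 CPM in T-bet+ cDC2s and 4.47 and 2.85 CPM in cDC1s (T-bet- over cDC1s 1.05, adjusted p = 0.0097), a call made in 4 of 12 alternative fits and lost without any 1 of the cDC1 and T-bet- libraries (adjusted p = 0.012 to 0.19). In all, 5 windows of *Klf13* were called. Those in introns at 27.0 and 27.8 kb were more accessible than in cDC1s in both cDC2 subsets. Over cDC1s, T-bet+ cDC2s had log2 fold changes of 1.00 (adjusted p = 0.00076) and 0.79 (adjusted p = 0.00028), each called in 11 of 12 alternative fits. For T-bet- cDC2s they were 0.88 (adjusted p = 0.0045, 7 of 12) and 0.69 (adjusted p = 0.0021, 9 of 12).

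**Figure D4:**
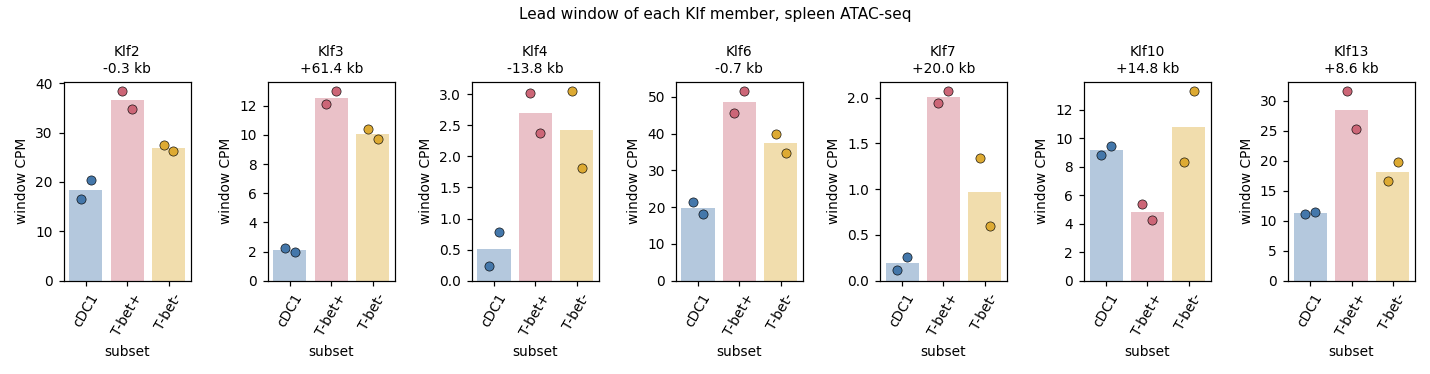
CPM of the ATAC window with the largest called difference for each member in the 2 libraries per subset (points), with bars from 0 to the group mean. The cDC1 libraries are lowest at the shown windows of *Klf2*, *Klf3*, *Klf4*, *Klf6*, *Klf7* and *Klf13*, and the T-bet+ cDC2 libraries are lowest at that of *Klf10*.

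To compare tissues, the same subset was set against itself in MLN and spleen, within a fit of all 16 libraries and 16795 genes. In cDC1s 2 members were called (11.7% of all genes called), *Klf2* lower in MLN by -2.53 ± 0.72 (log2, adjusted p = 0.037) and *Klf6* higher by 1.04 ± 0.29 (adjusted p = 0.034). In T-bet+ cDC2s 2 were called (5.09% of all genes called), *Klf2* lower by -3.67 ± 0.89 (adjusted p = 0.033) and *Klf4* lower by -2.39 ± 0.56 (adjusted p = 0.029). In T-bet- cDC2s edgeR called 0 members (5.94% of all genes called), while 6 had an unadjusted p under 0.05 and DESeq2 called 5. Over all genes, 4108 of 16795 had an unadjusted p under 0.05 there, and DESeq2 called 2243 of 16177. The members' median log2 fold changes were -0.85 in cDC1s, -0.68 for T-bet+ and -1.37 for T-bet- cDC2s, beside 0.01, 0.00 and -0.04 over all genes.

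*Klf2* was at 10.4 to 22.3 CPM in the 7 MLN libraries and at 13.3 to 182 CPM in spleen, and the lowest spleen library, cDC1 replicate 3, was of the lower GC class, like every MLN library. In cDC1s the tissue difference was -0.41 ± 0.59 (adjusted p = 0.73) with the class as a term. Among lower-class libraries alone, where replicate 3 was the only spleen cDC1 library, it was 0.12. In T-bet+ cDC2s it was -1.27 ± 0.71 (adjusted p = 0.45) with the class as a term. In T-bet- cDC2s the difference of -2.31 ± 0.83 (adjusted p = 0.11) was -1.61 ± 0.56 (adjusted p = 0.14) among lower-class libraries. Every spleen T-bet+ library was of the higher class and every MLN T-bet+ library of the lower, so tissue and class cannot be told apart in T-bet+ cDC2s. The cDC1 call was lost without any 1 of MLN cDC1 replicates 1 to 3 (adjusted p = 0.066, 0.15 and 0.08) or spleen cDC1 replicate 1 or 2 (-2.09, adjusted p = 0.13, and adjusted p = 0.1). The T-bet+ call was lost without MLN T-bet+ replicate 1 or 2 (adjusted p = 0.084 and 0.37) or any spleen T-bet+ replicate (adjusted p = 0.085, 0.063 and 0.071).

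**Figure D5:**
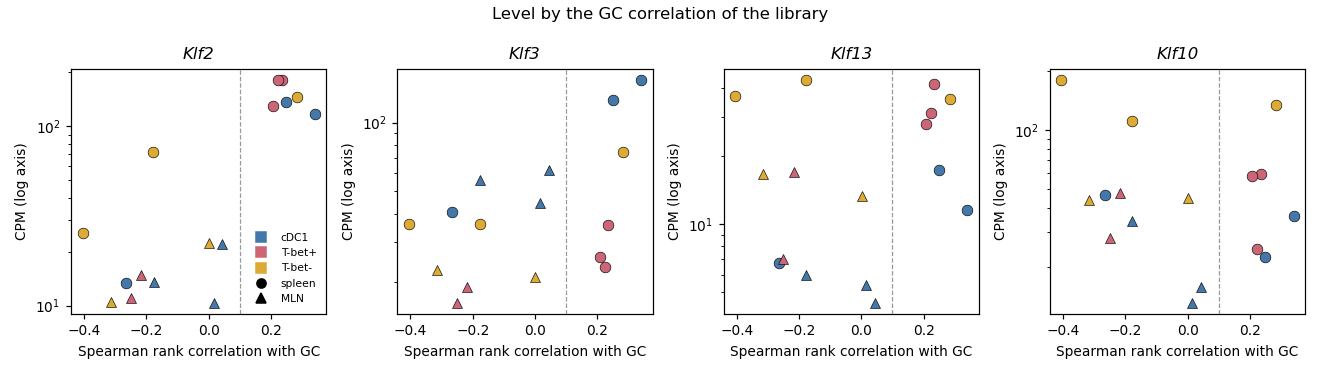
TMM-normalized CPM (log axis) of *Klf2*, *Klf3*, *Klf13* and *Klf10* against each library's rank correlation with transcript GC content, 1 point per RNA library, with a dashed line at the 0.1 limit between GC classes. *Klf2* is at 71.8 CPM or less in every library left of the line and at 117 CPM or more in every library right of it, whereas *Klf10* is high in spleen T-bet- cDC2s on both sides.

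*Klf4* was lower in MLN T-bet+ cDC2s (19.3 and 35.7 CPM) than in those of the spleen (114 to 177 CPM). The call was lost without MLN T-bet+ replicate 2 (-2.03, adjusted p = 0.38), without spleen T-bet+ replicate 1, 2 or 3 (adjusted p = 0.064, 0.065 and 0.074) and with the class as a term (-2.12 ± 0.75, adjusted p = 0.25). *Klf6* was at 868 to 2004 CPM in MLN cDC1s and 573 to 787 CPM in spleen cDC1s, without overlap. With the class as a term its difference was 0.86 ± 0.35 (adjusted p = 0.16), and without MLN cDC1 replicate 3 it was 0.68 (adjusted p = 0.16). Its call was also lost without MLN cDC1 replicate 2 (adjusted p = 0.084), MLN T-bet- replicate 1 or 2 (adjusted p = 0.051 for each), spleen T-bet- replicate 2 (adjusted p = 0.052) or spleen cDC1 replicate 1 or 2 (adjusted p = 0.14 and 0.11). *Klf13* differed between MLN and spleen by -1.18 to -1.47 (log2) in the 3 subsets, which edgeR did not call (adjusted p = 0.05 to 0.066) and DESeq2 called in each (adjusted p = 0.0088 to 0.013). Its difference in cDC1s was -0.82 (adjusted p = 0.3) with the class as a term. Among lower-class libraries, where replicate 3 was the only spleen cDC1 library, it was -0.44. In T-bet+ cDC2s it was -1.02 (adjusted p = 0.44) with the class as a term.

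The levels of *Klf6* in MLN are given beside markers of mature, migratory dendritic cells, *Ccr7*, *Fscn1*, *Ccl22* and *Cacnb3*. In spleen the markers summed to 1516 to 2610 CPM in cDC1s and 3679 to 4998 CPM in cDC2s. *Klf6* was there at 573 to 787 CPM and 618 to 794 CPM in the same order. Of these markers only *Ccr7* was called higher in spleen T-bet+ cDC2s than in cDC1s (means of 4254 and 1800 CPM), while *Ccl22* was called lower (13.3 and 88.2 CPM). In spleen T-bet- cDC2s only *Ccr7* was called higher than in cDC1s, and *Cacnb3* was called lower. In MLN cDC1s the sum was 4061, 14789 and 14419 CPM beside 868, 1288 and 2004 CPM of *Klf6*, and in MLN T-bet+ cDC2s it was 2883 and 10669 CPM beside 702 and 1193 CPM. In MLN T-bet- cDC2s it was 11917 and 12954 CPM beside 1218 and 1623 CPM. The MLN libraries with the lowest marker sums had the lowest *Klf6* levels of their group. In cDC1s and T-bet+ cDC2s these were the libraries numbered 1, and no MLN T-bet- library carried that number in its name. Marker sum and library number cannot be told apart there, and the part of maturation in the tissue difference was not tested.

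Whether a difference between subsets itself differed between tissues was tested as an interaction. edgeR called 0 members for the T-bet+ to T-bet- difference (0.00595% of all genes called), for T-bet+ cDC2s over cDC1s (0.0893% called) and for T-bet- cDC2s over cDC1s (0.0357% called), with smallest adjusted p-values of 0.95, 0.58 and 1. At an unadjusted p under 0.05 these counts were 0, 1 (*Klf4*) and 0, and DESeq2 called 0 in each. Over all 16795 genes, 847, 1424 and 991 had such a p. DESeq2 called 39 of 15523, 234 of 16838 and 114 of 17498 genes.

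Of the other 10 *Klf* genes, 7 were tested in spleen and 6 in MLN, and edgeR called 0 between subsets in either tissue. In the comparison of MLN T-bet- cDC2s with cDC1s 3 of them had an unadjusted p under 0.05 and DESeq2 called *Klf5* and *Klf12*, and in the other 5 comparisons both counts were 0. *Klf11*, a close relative of *Klf10*, was at 2.43 to 26.8 CPM, and *Klf8* was at 0.976 to 13.5 CPM in spleen and 16.3 to 22.1 CPM in MLN, a tissue difference that edgeR called in no subset and DESeq2 called in T-bet- cDC2s, as it did for *Klf1* and *Klf5*. By edgeR, *Klf1*, the erythroid member, and *Klf16* were lower in MLN cDC1s. *Klf1* was at 2.67, 4.07 and 0.725 CPM in spleen cDC1s and at 0, 0.13 and 0 CPM in MLN cDC1s. It was also called lower in MLN T-bet+ cDC2s (0 and 0.0385 CPM) than in those of the spleen (2.3, 3.22 and 1.08 CPM), and red cell markers summed to 3.14 to 11.2 CPM in spleen and 0.109 to 0.433 CPM in MLN. Their part in the *Klf1* difference was not tested. *Klf16* fell by 1.78 (log2, adjusted p = 0.044), a call kept in 5 of 16 fits without 1 library.

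Of the 8 *Sp* genes of the table, 4 were tested, and edgeR called 0 between subsets in either tissue. At an unadjusted p under 0.05 there was 0 in the spleen comparisons and 1 in each MLN comparison (*Sp4* in both T-bet+ comparisons, *Sp2* between T-bet- cDC2s and cDC1s), and DESeq2 called *Sp4* between MLN T-bet+ cDC2s and cDC1s. *Sp4* was higher in MLN than in spleen in cDC1s, by 1.2 ± 0.35 (log2, adjusted p = 0.039), and in T-bet+ cDC2s, by 1.48 ± 0.38 (adjusted p = 0.04). These calls were kept in 5 and 6 of 16 fits without 1 library.

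The 7 genes upstream of *Klf2* were the ERK5 pathway, its Mef2 targets and the Foxo factors. Of these, 2 were higher in T-bet+ cDC2s than in cDC1s of the spleen (18.2% of all genes called). *Foxo3* was at 37.4, 22.6 and 23.3 CPM in T-bet+ cDC2s, 10.8, 12.2 and 14.7 CPM in T-bet- cDC2s and 7.45, 6.17 and 6.04 CPM in cDC1s, with no overlap. T-bet+ cDC2s exceeded cDC1s by 2.09 ± 0.29 (log2, adjusted p = 0.00088), which held without each library. Its differences between the cDC2 subsets (1.14 ± 0.28, adjusted p = 0.045) and between T-bet- cDC2s and cDC1s (0.94 ± 0.28, adjusted p = 0.048) were each kept in 1 of 9 fits without 1 library. *Mef2c* was higher in T-bet+ cDC2s than in cDC1s by 1.25 ± 0.30 in spleen (adjusted p = 0.017, kept in 5 of 9 such fits) and by 2.65 ± 0.49 in MLN (adjusted p = 0.021, kept in 3 of 7). The others passed in no comparison between subsets.

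Of 7 corepressors, *Ctbp2*, a partner of KLF3, was lower in spleen T-bet+ cDC2s (4.71, 4.27 and 6.31 CPM) than in T-bet- cDC2s (13.7, 11.7 and 12.3 CPM) and cDC1s (13, 18.2 and 9.23 CPM), with no overlap of the T-bet+ libraries with either. Its log2 fold change was -1.40 ± 0.31 against cDC1s (adjusted p = 0.012, 18.2% of all genes called), lost without T-bet+ replicate 1 or 2 (adjusted p = 0.058 and 0.059). Against T-bet- cDC2s it was -1.30 ± 0.31 (adjusted p = 0.044, 5.38% of all genes called), kept in 2 of 9 fits without 1 library. Of 4 ubiquitin ligases known to act on the family, *Smurf1* was higher in MLN T-bet- cDC2s than in cDC1s (1.25 ± 0.28, adjusted p = 0.039, 5.79% of all genes called), kept in 1 of 7 such fits. The other 3 passed in no comparison between subsets.

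Of 11 genes reported as targets of the family, 1 rose and 3 fell in spleen T-bet+ relative to T-bet- cDC2s (5.38% of all genes called). Relative to cDC1s, 4 rose and 2 fell in T-bet+ cDC2s (18.2% called), and 4 rose and 1 fell in T-bet- cDC2s (15.9% called). Their median log2 fold changes were -0.81, 0.61 and 0.47, beside the all-gene medians given above. *S1pr1*, the sphingosine phosphate receptor for tissue exit, was at 0.0396, 0 and 0 CPM in T-bet+ cDC2s, 2.46, 2.11 and 0.793 CPM in T-bet- cDC2s and 1.13, 0.699 and 5.12 CPM in cDC1s. It was called against cDC1s without each library and against T-bet- cDC2s in 6 of 9 such fits.

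*Thbd*, which encodes thrombomodulin, was at 32.7, 21.5 and 23.2 CPM in spleen T-bet- cDC2s, 4.59, 4.09 and 1.04 CPM in T-bet+ cDC2s and 1.54, 2.02 and 2.85 CPM in cDC1s. It was higher in T-bet- cDC2s than in cDC1s by 3.60 ± 0.54 (log2, adjusted p = 0.0017) and lower in T-bet+ cDC2s than in their T-bet- counterparts by -2.99 ± 0.53 (adjusted p = 0.012), and both calls were kept without each library. *Ccnd1*, a cyclin that KLF4 is known to repress, was highest in T-bet+ cDC2s, 1.58 ± 0.24 above T-bet- cDC2s (adjusted p = 0.0053) and 2.36 ± 0.24 above cDC1s (adjusted p = 0.00016). *Cdkn1a*, a cell cycle inhibitor that KLF4 and KLF6 are known to induce, was higher in T-bet- cDC2s than in cDC1s by 2.79 ± 0.35 (adjusted p = 0.00061). *Ccl5*, a chemokine gene that KLF13 is known to bind in T cells, and *Smad7*, an inhibitor of TGF-β signalling, were higher in T-bet+ cDC2s than in cDC1s by 1.92 ± 0.39 (adjusted p = 0.0077) and 2.2 ± 0.45 (adjusted p = 0.008), and each of these calls was kept without each library. *Lgals3*, which encodes galectin-3, was lower in T-bet+ cDC2s than in cDC1s (-1.87 ± 0.23, adjusted p = 0.00049, kept without each library) and than in T-bet- cDC2s (-0.98 ± 0.23, adjusted p = 0.037, kept in 4 of 9 such fits). It was called lower in T-bet- cDC2s than in cDC1s as well.

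In MLN, 10 of the 11 targets were tested. Between T-bet+ and T-bet- cDC2s edgeR called 0, while 3 had an unadjusted p under 0.05 and DESeq2 called 0. Over all genes, edgeR called 0, 1444 of 15298 had such a p and DESeq2 called 328 of 16532. Against cDC1s, *Smad7* and *Ccnd1* rose in T-bet+ cDC2s (6.22% of all genes called) and *Thbd* and *Smad7* rose in T-bet- cDC2s (5.79% called). Their log2 fold changes were 2.03 to 2.51, with adjusted p-values of 0.026 to 0.041, and the calls were kept in 2 to 4 of 7 fits without 1 library. Immediate early genes respond to handling, as *Klf2*, *Klf4*, *Klf6* and *Klf10* are known to. Of 12 such genes, 5 rose in spleen T-bet+ cDC2s (18.2% of all genes called) and 3 in spleen T-bet- cDC2s (15.9% called), relative to cDC1s. *Zfp36* was higher by 1.31 ± 0.15 (adjusted p = 0.00025) and 1.13 ± 0.15 (adjusted p = 0.00069), and *Fos* by 0.94 ± 0.15 (adjusted p = 0.0021) and 0.74 ± 0.15 (adjusted p = 0.0083), all kept without each library. *Atf3* (1.39 ± 0.29, adjusted p = 0.0081), *Nr4a1* (1.11 ± 0.23, adjusted p = 0.0079) and *Btg2* (0.86 ± 0.19, adjusted p = 0.013) were the others in T-bet+ cDC2s, and *Atf3* (1.01 ± 0.28, adjusted p = 0.04, kept in 2 of 9 fits without 1 library) was the other in T-bet- cDC2s. Between the spleen cDC2 subsets edgeR called 0 of them, with 1 (*Egr2*) at an unadjusted p under 0.05 and called by DESeq2. In MLN it called 0 in each comparison, with 2 at an unadjusted p under 0.05 (*Atf3* and *Zfp36*) and 1 called by DESeq2 (*Zfp36*), both between T-bet- cDC2s and cDC1s. The part of these genes in the *Klf4* and *Klf10* differences was not tested.

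Between tissues, 3 targets rose and 2 fell in MLN cDC1s (11.7% of all genes called). In MLN T-bet- cDC2s 1 fell (5.94% called), and in MLN T-bet+ cDC2s 1 rose (5.09% called). The medians were -0.82, -0.98 and -0.52 in this order. In cDC1s, *Ccl5* was at 317, 1782 and 1409 CPM in MLN and at 163, 68.2 and 177 CPM in spleen (3.10 ± 0.59, adjusted p = 0.0063), while *Lgals3* was lower in MLN (-1.80 ± 0.25, adjusted p = 0.0012), and both calls were kept in 16 of 16 fits without 1 library. *S1pr1* was at 11.6, 31.9 and 28.4 CPM in MLN cDC1s, a call kept in 6 of 16 such fits. *Cdkn1a* (1.45 ± 0.37, adjusted p = 0.023) was higher and *Smad7* (-1.66 ± 0.47, adjusted p = 0.036) lower, kept in 12 and 11 of 16. *Thbd* was lower in MLN T-bet- cDC2s (-2.03 ± 0.53, adjusted p = 0.038, kept in 8 of 16), and *S1pr1* was the target that rose in MLN T-bet+ cDC2s. Of the upstream genes, *Mef2c* was lower in MLN cDC1s (-1.40 ± 0.39, adjusted p = 0.034, kept in 12 of 16) and *Foxo3* in MLN T-bet+ cDC2s (-2.09 ± 0.42, adjusted p = 0.014, lost without spleen T-bet+ replicate 1 or MLN T-bet+ replicate 2, adjusted p = 0.064 and 0.28). Of the corepressors *Sap30* was lower in MLN cDC1s (-3.52 ± 1.06, adjusted p = 0.045, kept in 4 of 16), and of the immediate early genes *Zfp36* was higher there (0.84 ± 0.21, adjusted p = 0.024, kept in 13 of 16). In T-bet+ cDC2s edgeR called 0 of the 12 immediate early genes between tissues, while their median was -1.88, 8 had an unadjusted p under 0.05 and DESeq2 called 6 (*Atf3*, *Dusp1*, *Egr1*, *Fosb*, *Ier2* and *Jun*). Over all genes, 4465 of 16795 had such a p in T-bet+ cDC2s, and DESeq2 called 2704 of 16838. The part of the immediate early genes in the lower *Klf2* and *Klf4* of MLN T-bet+ cDC2s was not tested.

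As a description of likeness, each member's log2 CPM was correlated with that of 11096 genes over the 16 RNA libraries, which share groups, depth and GC class. For *Klf2* the most similar genes were *Eif3f*, *Jund* and *Grasp* (Pearson's r = 0.98 for each), whose most GC-rich 100 bases have GC contents of 85%, 86% and 85%. For *Klf4* they were *Smad7* and *Rasgrp2* (0.96 for each) and *Rnf149* (0.95), for *Klf13* *Ifitm2* (0.98), *Rnf149* and *Plaur* (0.95 for each), and for *Klf10* *Thbd* and *RP24-417N13.7* (0.91 for each) and *Nceh1* (0.90). For *Klf3* they were *Rps6ka2* (0.95), *Map3k4* and *Mesdc1* (0.94 for each), for *Klf6* *Prr14* (0.95), *Atcay* (0.94) and *Bdkrb2* (0.93), and for *Klf7* *Asxl1* (0.86), *Cpt1c* (0.83) and *Apip* (0.80). Among the members themselves, *Klf4* and *Klf13* were most alike (r = 0.89), followed by *Klf10* and *Klf13* (0.73), and *Klf3* and *Klf7* were most opposed (-0.65).

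The 95 windows were searched for short motifs on both strands. The CACCC-type element CCACCC was in 17 of them (17.9%), beside 13.9% of all 177956 windows and 30.9% of 27025 promoters. *Klf13* had 7 such windows, *Klf7* 3, *Klf2*, *Klf3* and *Klf10* 2 each and *Klf6* 1. The T-box form TCACACCT was in 4 windows (4.21%, beside 0.714% of all windows), namely the *Klf7* and *Klf13* introns shown above and a pair of overlapping windows at 9.3 and 9.4 kb of *Klf6* that was called in no comparison. AGGTGTNA, which takes in the first form, was in 8 windows (8.42%, beside 1.92%), of which those at *Klf7* lay at 20 kb and at 118.4 to 118.9 kb. Runx (TGTGGTT, 6.32% beside 5.23%), C/EBP (TTGCNNAA, 7.37% beside 5.89%), AP-1 (TGANTCA, 9.47% beside 7.9%), PU.1 (GAGGAAGT, 4.21% beside 5.5%) and Mef2 (TATTTATA, 1.05% beside 0.604%) forms were also counted. In RefSeq promoters (250 bases before to 50 after a start) CCACCC occurred 3 times at *Klf3* and at *Klf7* and once at *Klf2* and at *Klf13*, and did not occur at *Klf4* and *Klf6*. These are matches of letters and no record of binding.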

How the data were processed

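The RNA-seq and ATAC-seq read counts analysed here are the deposited tables, in which the authors counted reads per gene (HISAT2 2.1.0 alignment to mm10, Rsubread, GENCODE annotation; RNA amplified with SMARTer) and per 150-base window around peak summits (Bowtie2 2.2.5, cuts shifted, MACS2 2.1.1.20160309 on all replicates together). The strand setting is not given in the sources used here. The labels name RFP+ cells as T-bet+, whereas a sentence of the methods names RFP- cells, and the labels were followed. Score columns of the deposited peak files, which pool replicates, were not used.

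Counts were tested with edgeR 4.0.16 (quasi-likelihood, filterByExpr, TMM, Benjamini-Hochberg over all features, R 4.3.3), with all libraries of a tissue or assay in a fit and the subset as its only term. SE is the log2 fold change over the root of F. RNA calls needed an adjusted p under 0.05, and window calls 0.01 with a log2 fold change beyond 0.5 either way. Scripts were tested on simulated data. Alternatives were DESeq2 1.42.0, other scalings and filters, fewer libraries, a replicate block, whole peaks, other window joins, the GC class as a term and each library left out. After seeing the data, fits within a GC class, with the class over all 16 libraries, and without the MLN cDC1 and T-bet+ libraries numbered 1 were added. The members and lists were chosen with earlier results of these data known, and 1 gene of the target list is not reported here. The rule for named items was all members, called genes of each list, the 3 genes most alike each member, and up to 3 windows per member with the largest called difference plus the one nearest its start. Of listed genes not called, those named were chosen after their values were seen. Depth was 20993220 to 29006549 gene reads per RNA library and 7270164 to 10081555 window reads per ATAC library. Sequences were read from GRCm38.p6, and *Klf10* was not in the RefSeq promoter table.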

Additional observations from a re-analysis of the deposited data

How the results depend on the processing

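Calls between spleen cDC2s and cDC1s for *Klf4*, and for *Klf10* and *Klf13* in T-bet- cDC2s, kept their direction and side of the threshold in all 9 alternative fits and without each library. The windows of *Klf4* were at 0.235 to 4.04 CPM. Causes of the changes below were not tested. A count below without a share of all genes cannot be judged against the genes called in the same fit.

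Between spleen T-bet+ and T-bet- cDC2s 1 member (*Klf10*) was called with DESeq2, DESeq2 size factors, no filter, only the compared libraries or at least 10 counts everywhere. With the GC class as a term 1 (*Klf3*) was called. Higher-class libraries only left T-bet- replicate 3 alone in its group, so that fit is given by its log2 fold change. At an adjusted p under 0.01, 1 was called between spleen T-bet+ cDC2s and cDC1s, and 0 in either MLN comparison with cDC1s. For MLN T-bet+ cDC2s over cDC1s 2 were called with DESeq2 or no filter. For T-bet- cDC2s 3 were called with DESeq2, 1 with DESeq2 size factors and 4 with no filter. Between tissues, cDC1s had 4 called with no filter and 0 with the class term. T-bet- cDC2s had 5 with DESeq2 (2243 of 16177 genes called), 6 with no filter, 1 with the class term and 3 without the MLN libraries numbered 1. T-bet+ cDC2s had 0 with the class term. DESeq2 called 3 windows between the cDC2 subsets and 7 between T-bet- cDC2s and cDC1s, and windows within 2 kb of a start numbered 0, 9 and 3 in the 3 comparisons.

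Not every pair of same-numbered replicates deviated together (correlations of -0.74 to 0.431 in spleen, -0.138 to 0.657 in MLN and -0.206 to 0.114 in ATAC). Deviations from the mean of so few libraries are tied to one another, so this cannot tell whether the numbers pair these samples. By the number in the MLN library names, same-numbered pairs had correlations of -0.0143 to 0.657 (median 0.356, against -0.138 for other pairs). Whether these numbers mark samples processed together was not tested. The replicate block gave 2 members for spleen T-bet+ cDC2s over cDC1s (*Klf3* lost), 0 members for MLN T-bet- cDC2s over cDC1s and 2 between tissues in T-bet- cDC2s, and 7, 25 and 13 windows. With the number in the library name as the block it gave 2 and 4 members for MLN T-bet+ and T-bet- cDC2s over cDC1s.

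50 values changed sign, of which 1 was called in either fit (*Klf2* between tissues in cDC1s). With the class term these log2 fold changes were, between spleen T-bet+ and T-bet- cDC2s, -0.41 for *Klf2* and 0.45 for *Klf7* (0.56 in higher-class libraries). For spleen T-bet+ cDC2s over cDC1s *Klf7* was 0.25 (0.19), and for T-bet- cDC2s over cDC1s *Klf2* was 1.01 (0.21), *Klf7* -0.19 (-0.37) and *Klf6* -0.03 (-0.00 with library size only). In MLN the class term, with the classes found within MLN, gave *Klf4* 0.10 between the cDC2 subsets and *Klf2* 0.12 for T-bet+ cDC2s over cDC1s. Between tissues it gave *Klf3* 0.16 in cDC1s and 0.74 in T-bet+ cDC2s and *Klf7* -0.26 in T-bet+ cDC2s, and lower-class libraries gave *Klf2* 0.12 and *Klf3* 0.34 in cDC1s. With the block, *Klf2* was 0.11 for MLN T-bet+ cDC2s over cDC1s, and with the library-name block it was 0.11 there and 0.01 between the MLN cDC2 subsets, and *Klf6* was -0.13 for MLN T-bet- cDC2s over cDC1s (-0.12 without both libraries numbered 1).

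Without each library in turn, members called ranged from 0 to 1 between spleen cDC2 subsets, 1 to 3 for spleen T-bet+ and 3 to 4 for spleen T-bet- cDC2s over cDC1s, 0 to 2 for MLN T-bet+ and 0 to 3 for MLN T-bet- cDC2s over cDC1s, and, between tissues, 0 to 3 in T-bet+ cDC2s, 0 to 2 in T-bet- cDC2s and 0 to 4 in cDC1s. Windows called ranged from 4 to 7 between the cDC2 subsets, from 14 to 28 for T-bet+ and from 3 to 18 for T-bet- cDC2s over cDC1s. Signs changed between the MLN cDC2 subsets for *Klf10* (-0.64 to 0.09), *Klf13* (-1.06 to 0.17), *Klf2* (-0.79 to 0.26) and *Klf4* (-1.06 to 0.43), for MLN T-bet+ cDC2s over cDC1s for *Klf2* (-0.43 to 0.12), and for MLN T-bet- cDC2s over cDC1s for *Klf2* (-0.48 to 0.57) and *Klf6* (-0.12 to 0.43). Between tissues they changed for *Klf6* in T-bet+ cDC2s (-0.06 to 0.76) and *Klf7* in cDC1s (-0.33 to 0.20). In spleen they changed for *Klf6* (-0.10 to 0.15) and *Klf7* (-0.51 to 0.12) between the cDC2 subsets, for *Klf6* (-0.04 to 0.23) and *Klf7* (-0.37 to 0.19) in T-bet+ cDC2s over cDC1s, and for *Klf2* (-0.92 to 0.30), *Klf6* (-0.10 to 0.18) and *Klf7* (-0.20 to 0.36) in T-bet- cDC2s over cDC1s.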
